A study of Mus musculus with 16 samples.

Results

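Expression of 10 genes of MHC class II presentation was followed in brain macrophages of bone marrow chimeras. The genes were taken by symbol from the 24411 genes of the deposited count table. They comprise the chains of the classical molecules (H2-Aa, H2-Ab1 and H2-Eb1), the invariant chain Cd74, the transactivator Ciita, the peptide exchange factor DM (H2-DMa, H2-DMb1 and H2-DMb2) and its inhibitor DO (H2-Oa and H2-Ob). All 10 were present in the table, and 9 of them had enough reads to be tested in at least 1 comparison. The mice were 8 wild-type C57BL/6J recipients that had been irradiated with 950 cGy and given congenic wild-type marrow carrying CD45.1. Mice 1 to 4 were killed 12 h after LPS (2.5 mg/kg), and mice 5 to 8 were not injected. From each brain, engrafted cells (Ly6C/G-negative, CD11b-positive, CD45.1 low) and host microglia (the same gate with CD45.2 low) were sorted and sequenced, giving 16 libraries in 4 groups of 4. Both populations thus came from the same irradiated brain. The sample labels allow 3.5 or 9 months after transfer without saying which mouse had which interval. The study's results place this experiment at 9 months.

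Class II molecules present peptides from the endosomal pathway to CD4 T cells. The alpha and beta chains assemble with the invariant chain, which blocks the peptide groove and directs the complex to endosomes. There cathepsins degrade it down to the CLIP peptide, and DM exchanges CLIP for antigenic peptide. Transcription of the classical class II genes depends on CIITA, a coactivator that does not bind DNA itself. It is recruited by RFX, CREB and NF-Y at the X and Y boxes of class II promoters. Resting microglia are known for low class II expression, whereas macrophages at the borders of the brain include class II-positive cells. In mice of the b haplotype, such as C57BL/6, the E alpha chain is not made, so H2-Eb1 RNA yields no I-E molecule on the surface.

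Of the 10 genes, 8 lie together on chromosome 17, between 34229324 and 34453619 in the mm9 build, and Ciita lies on chromosome 16 (10480165 to 10527733). Their promoters were searched for the letters CCAAT, the core of the Y box bound by NF-Y, and AGCAAC, taken as the core of the X box bound by RFX, on both strands (ATTGG and GTTGCT on the other strand), in a window from 250 bases before to 50 bases from the start given in the table. The Y box core was found in 7 of the 10 promoters, against 37.9% of all 24341 promoters searched in the same way. The X box core was found in 4 of 10, against 14.2% of all promoters, and both cores in the same 4, against 5.71%. These 4 were H2-Eb1, H2-Oa, H2-Ob and Cd74, so the pair of cores was present in genes with unlike expression, as described below. In Cd74 the Y box core began 205 bases before the start and the X box core lay 33 to 38 bases after it. That order is the reverse of the order in H2-Eb1, H2-Oa and H2-Ob. Whether these letters in Cd74 form its X box was not tested. Neither core was found in the windows of Ciita, H2-DMa and H2-DMb2. The table's start of H2-DMa lies 12350 bases upstream of the start in the GENCODE annotation of the same build, and that of H2-DMb2 lies 2109 bases from its annotated start, so the windows searched for these genes are not those at the annotated starts. For the 5 genes shown, H2-Eb1 (chr17:34442662-34442781), H2-Oa (chr17:34229174-34229293), H2-Ob (chr17:34375700-34375819), H2-Ab1 (chr17:34400022-34400141) and H2-Aa (chr17:34424747-34424866, minus strand), the 120 bases that end 31 bases before the start are printed 5′ to 3′ on the strand of the gene. Capitals mark the searched cores. They are shown because H2-Eb1 and H2-Oa differed in opposite directions between the populations.
H2-Eb1: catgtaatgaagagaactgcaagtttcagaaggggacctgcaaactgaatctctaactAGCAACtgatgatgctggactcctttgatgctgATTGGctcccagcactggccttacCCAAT
H2-Oa: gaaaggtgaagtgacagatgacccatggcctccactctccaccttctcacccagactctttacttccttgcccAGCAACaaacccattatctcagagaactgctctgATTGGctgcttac
H2-Ob: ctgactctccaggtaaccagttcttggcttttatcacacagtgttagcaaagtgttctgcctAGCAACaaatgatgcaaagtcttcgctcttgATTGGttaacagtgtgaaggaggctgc
H2-Ab1: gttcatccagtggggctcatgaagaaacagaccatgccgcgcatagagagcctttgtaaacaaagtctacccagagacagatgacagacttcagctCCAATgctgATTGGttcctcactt
H2-Aa: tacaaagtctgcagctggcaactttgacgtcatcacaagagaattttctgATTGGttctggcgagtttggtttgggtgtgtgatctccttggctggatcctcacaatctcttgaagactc
In H2-Eb1, H2-Oa and H2-Ob the X box core began 92, 77 and 88 bases before the start, and the Y box core followed 59, 43 and 57 bases before it. H2-Ab1 held 2 Y box cores, 54 and 45 bases before the start, and H2-Aa held 1, 100 bases before it. A match of letters is a description of the window and no evidence of binding. Only exact letters were searched, so a window without a match may still hold a variant of either box.

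The first question was how engrafted cells and host microglia of unchallenged mice differed in these genes. The classical chains and the invariant chain were far higher in the graft. All 10 genes together took 3.00% ± 1.04 (SD, n = 4) of the reads in engrafted cells, with a range of 2.03 to 4.23%, and 0.155% ± 0.0263 in host microglia. For H2-Ab1, the beta chain of I-A, engrafted cells of mice 5, 6, 7 and 8 gave 7067, 15594, 7667 and 13439 CPM, and host microglia of the same mice gave 117, 309, 228 and 184 CPM. H2-Aa, its alpha chain, was at 5091, 11114, 5490 and 9432 CPM in engrafted cells and at 39.8, 170, 88.8 and 90.9 CPM in host microglia. For both chains the lowest engrafted library lay above the highest host library by more than an order of magnitude. H2-Eb1 gave 2858, 6405, 3765 and 5267 CPM in the graft and 19.2, 63.5, 31.2 and 29.3 CPM in the host. Cd74 (chromosome 18, 60963503 to 60972306), the invariant chain, gave 3279, 8338, 4692 and 6587 CPM in the graft and 48.7, 158, 111 and 80.8 CPM in the host. The fitted log2 fold changes of graft over host were 5.69 (SE 0.257) for H2-Ab1, 6.27 (SE 0.295) for H2-Aa, 6.88 (SE 0.267) for H2-Eb1 and 5.79 (SE 0.274) for Cd74. Their adjusted p-values in edgeR's quasi-likelihood test lay between 2.07e-16 for H2-Eb1 and 8.49e-15 for Cd74.

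**Figure D1:**
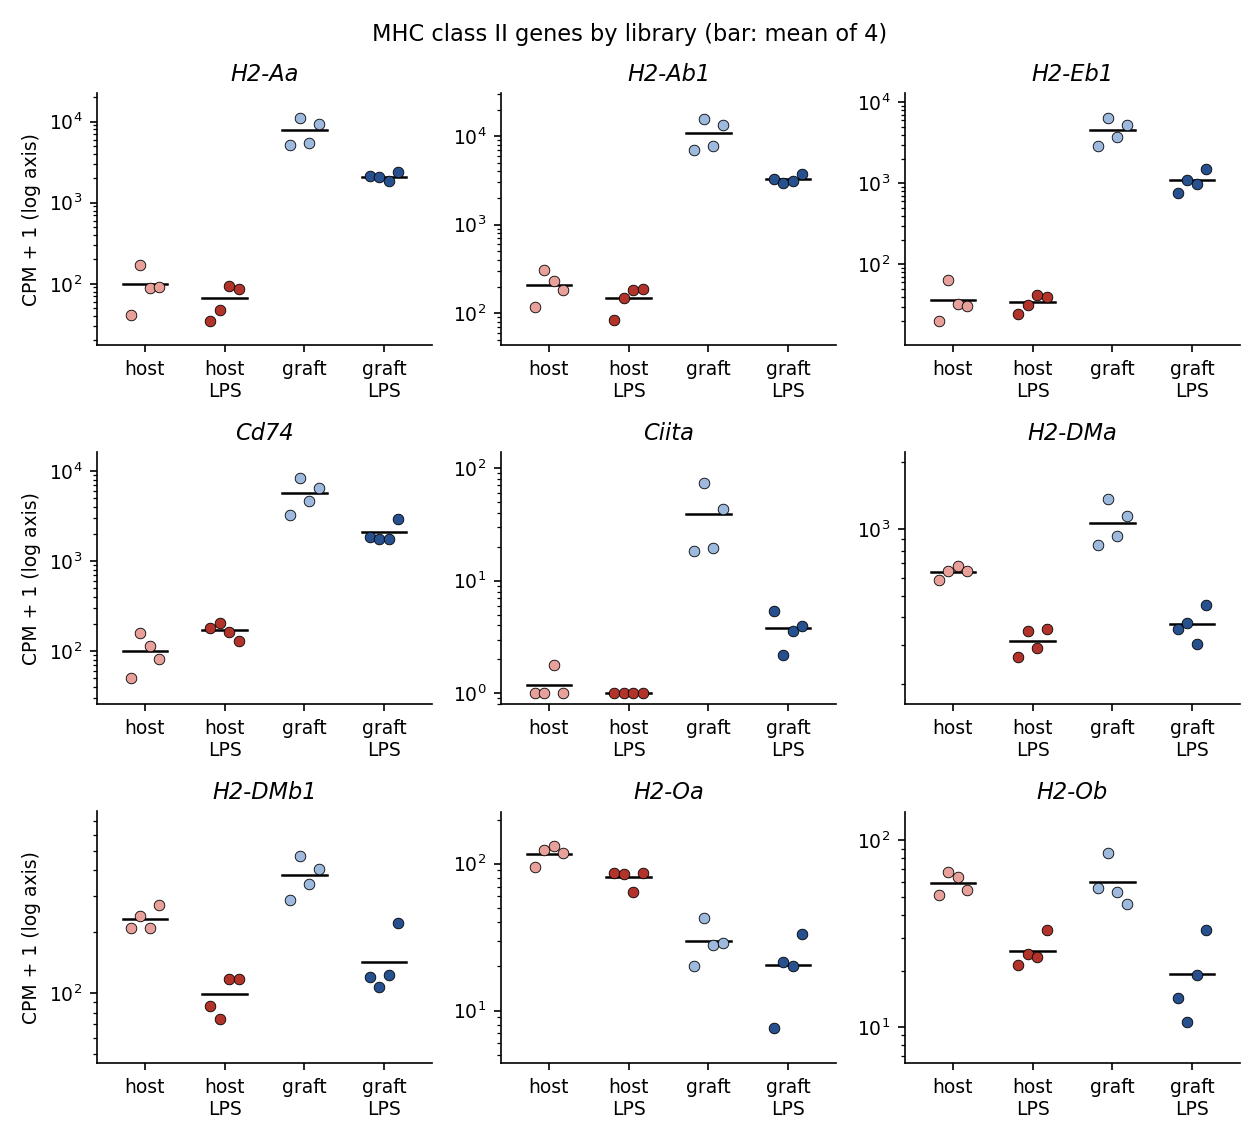
Level of 9 class II presentation genes in each of the 16 libraries, as CPM + 1 on a log axis whose range differs between panels. Each point is 1 mouse, the bar is the mean of 4, red marks host microglia, blue marks engrafted cells and darker shades mark LPS. H2-Aa, H2-Ab1, H2-Eb1, Cd74 and Ciita were higher in the graft, with no overlap, while H2-Oa was higher in the host.

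Ciita was nearly restricted to the engrafted cells of unchallenged mice. Its reads numbered 17, 42, 11 and 23 in the graft libraries of mice 5, 6, 7 and 8, or 17.2, 72.7, 18.4 and 42.6 CPM. Host microglia held 1 read in all 4 libraries, in mouse 7. The ratio of CPM from these 93 and 1 reads was 137, with a 95% counting interval of 24.1 to 5488 that covers counting error only. In the fit across all genes Ciita was higher in the graft (adjusted p = 1.35e-07). The host count is too low to give a level.

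DM and DO did not share this pattern. H2-DMa, the alpha chain of DM, gave 848, 1358, 927 and 1140 CPM in engrafted cells and 590, 647, 684 and 648 CPM in host microglia. Its partner H2-DMb1 gave 287, 473, 344 and 404 CPM in the graft and 206, 238, 206 and 269 CPM in the host. Both genes were higher in every engrafted library than in any host library, but by less than 2-fold in the fit, with log2 fold changes of 0.74 (SE 0.130, adjusted p = 8.19e-05) and 0.71 (SE 0.149, adjusted p = 0.000626). H2-Oa, the alpha chain of DO, ran the other way, with 19.3, 41.6, 26.8 and 27.8 CPM in the graft against 94.4, 123, 130 and 117 CPM in the host. It was lower in engrafted cells by a log2 fold change of -1.97 (SE 0.191, adjusted p = 8.31e-09), without overlap. H2-Ob, the beta chain of DO, gave 54.7, 84.9, 52.0 and 44.5 CPM in the graft and 50.1, 66.4, 62.3 and 53.5 CPM in the host, and its log2 fold change of 0.02 (SE 0.193, adjusted p = 0.963) had no stable sign. The chains of DO therefore differed from each other in how they divided between the populations.

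A gene was called where it changed more than 2-fold with an adjusted p under 0.05. By this rule 5 of the 9 tested genes were higher in the unchallenged graft, where 5.66% of all 8042 tested genes were. Of the class II genes 1, H2-Oa, was lower, where 4.33% of all tested genes were. Of the 5 higher genes, Ciita passed the filter for low counts only through the graft libraries, where it is high. Its call is thus no separate support. The median log2 fold change was 3.88 over the 9 genes and 0.02 over all tested genes. The former is the fitted value of Ciita, which rests on 1 host read and on the prior count of the fit. The remaining gene, H2-DMb2, had 4 reads in all 16 libraries. Its counted model is 779 bases long, shorter than the 786 bases of its coding sequence, and ends 458 bases before the annotated 3′ end, which is the length of its 3′ UTR in GENCODE. Libraries of this kind read the 3′ ends of transcripts, so no level of H2-DMb2 can be drawn from its counts. Its coding sequence was identical to that of H2-DMb1 at 95.9% of 786 aligned positions, the highest identity among the classical, DM and DO genes, and reads that map to both would not have been counted under the authors' rule of unique mapping.

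**Figure D2:**
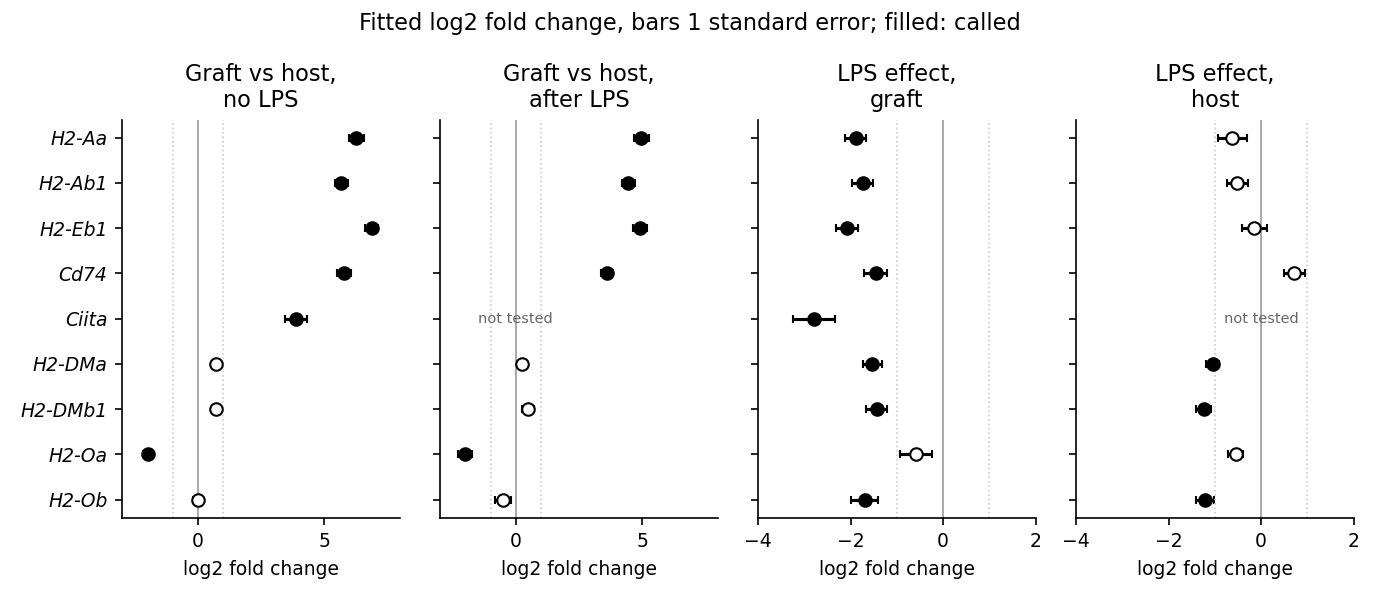
Fitted log2 fold change of each tested gene in 4 comparisons, with bars of 1 standard error, dotted lines at a 2-fold change and filled points where a gene was called. The scale of the first 2 panels differs from that of the last 2. The classical chains and Cd74 lie above 3 on the log2 scale in graft over host in both states, and H2-Oa lies near -2 in both.

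The low class II signal of host microglia was set beside that of other genes restricted to the graft. In unchallenged mice the host level of H2-Eb1 was 0.556 to 0.991% of the graft level in the same mouse, that of H2-Aa 0.782 to 1.62%, that of H2-Ab1 1.37 to 2.98% and that of Cd74 1.23 to 2.37%. Ms4a7, a macrophage gene of the graft that is low in microglia, had a host level of 1.34 to 1.74% of the graft level, Clec12a of 0 to 0.939%, and Cd38 of 2.22 to 9.08%. The classical chains and Cd74 of the host thus lay in the range of genes that mark the graft, whereas the host level of H2-DMa was 47.6 to 73.8%, that of H2-DMb1 50.3 to 72.0%, that of H2-Ob 78.2 to 120% and that of H2-Oa 296 to 490% of the graft level. The proportions among the classical transcripts, however, differed between the populations. Within a library, the reads of H2-Eb1 stood to those of H2-Ab1 as 0.425 ± 0.0450 (SD, n = 4) in unchallenged engrafted cells and as 0.167 ± 0.0288 in host microglia, and those of H2-Aa to H2-Ab1 as 0.713 ± 0.00789 and 0.444 ± 0.0958. Neither ratio overlapped between the populations, while the ratio of Cd74 to H2-Ab1 was 0.464 to 0.612 in the graft and 0.418 to 0.511 in the host. A ratio of counts within a library does not depend on scaling, and genes differ in length, so these ratios compare libraries and not genes. Whether RNA or cells of the graft contributed to the host libraries was not tested.

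**Figure D3:**
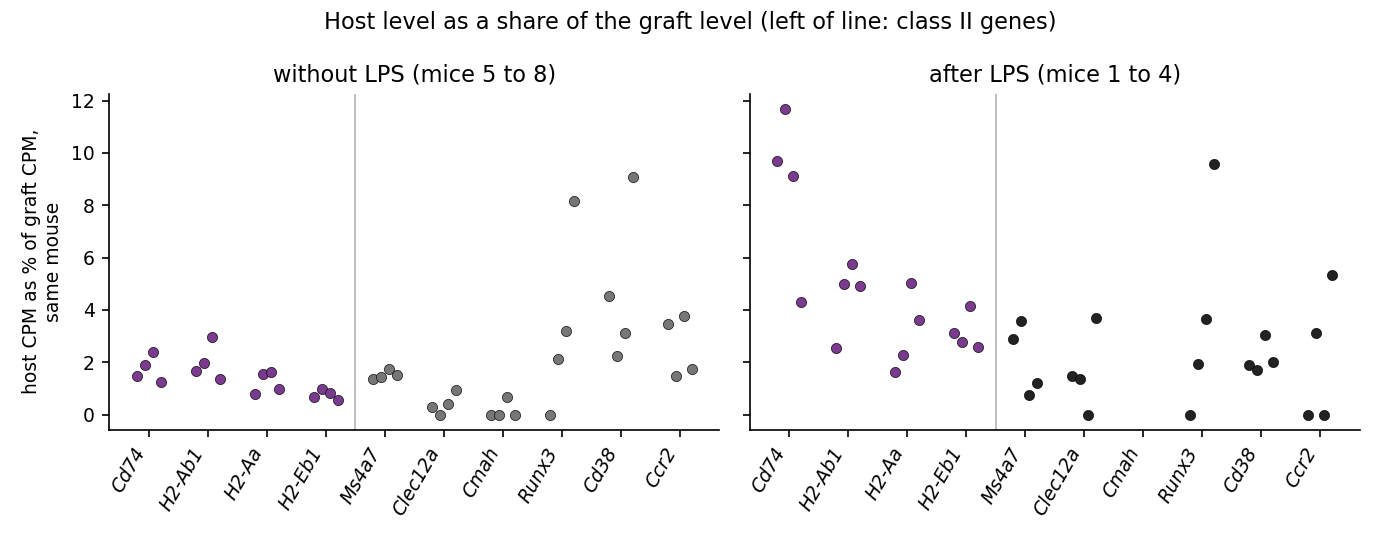
Level in host microglia as a percentage of the level in engrafted cells of the same mouse, for 4 class II genes (left of the line) and 6 genes restricted to the graft. Each point is 1 mouse, and Cmah has no point after LPS because no engrafted library held a read. Cd74 was at 2.37% or less in unchallenged mice and between 4.29 and 11.7% after LPS.

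Levels in the unchallenged graft varied between mice, and the genes varied together. Mouse 6 was highest and mouse 5 lowest for H2-Aa, H2-Ab1, H2-Eb1, Cd74, Ciita, H2-DMa and H2-DMb1 in engrafted cells. In host microglia mouse 6 was also highest and mouse 5 lowest for H2-Aa, H2-Ab1, H2-Eb1 and Cd74. Genes of dendritic cells, which express much class II, followed this order in part. Summed over 8 of them, the level was 138, 222, 164 and 193 CPM in the engrafted cells of mice 5, 6, 7 and 8, the same order of mice as for the class II genes, and 112 to 131 CPM in the unchallenged host. Batf3, a transcription factor of dendritic cells, made up most of this sum, at 118, 182, 129 and 152 CPM, again in that order. The genes more particular to these cells were low. Clec9a stood at 4.05, 24.2, 1.68 and 1.85 CPM in the engrafted cells of mice 5, 6, 7 and 8, and Cd209a at 5.07, 3.46, 21.8 and 9.27 CPM. Of 6 B cell genes, Cd79a and Pax5 had no read in any library, which allows up to 3 reads in each. Cd22 and Cd79b were present, at 67.0 ± 8.71 and 54.9 ± 19.3 CPM (SD, n = 4) in the unchallenged graft. Cd22 stood higher there than in the host by less than 2-fold (log2 fold change 0.81, SE 0.183, adjusted p = 0.00141), and Cd79b did not pass the test (0.33, SE 0.212, adjusted p = 0.285). Markers of perivascular macrophages, which include class II-positive cells, separated the populations as the class II genes did. Their summed level over 8 genes was 1385 to 1592 CPM in the unchallenged graft and 31 to 41.4 CPM in the unchallenged host, and all 5 that could be tested (Cbr2, F13a1, Mrc1, Ms4a7 and Pf4) were called higher in the graft. F13a1 also stands in the monocyte list used below, and Ms4a7 among the genes restricted to the graft. The part of these markers in the class II difference was not tested.

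The second question was what LPS did to these genes in the graft. Every class II gene that was tested had a lower fitted level after LPS, and 8 of 9 were called lower. None was called higher. In engrafted cells of mice 1, 2, 3 and 4, H2-Ab1 stood at 3287, 2950, 3151 and 3753 CPM and H2-Aa at 2108, 2047, 1874 and 2361 CPM. H2-Eb1 gave 760, 1098, 975 and 1509 CPM, and Cd74 1857, 1756, 1764 and 2965 CPM. For all 4 genes each LPS library lay below each unchallenged library. The coefficient of variation between mice was 9.61% after LPS and 38.1% before for H2-Aa, and 10.4% and 38.6% for H2-Ab1. It changed less for H2-Eb1 (29.0% and 34.4%) and Cd74 (28.2% and 38.6%). For H2-DMb1 (36.9% and 21.2%), H2-Oa (53.2% and 32.2%) and H2-Ob (54.1% and 30.1%) it was larger after LPS. The log2 fold changes of LPS over control were -1.74 (SE 0.227, adjusted p = 4.95e-06) for H2-Ab1, -1.89 (SE 0.226, adjusted p = 1.71e-06) for H2-Aa, -2.08 (SE 0.246, adjusted p = 1.57e-06) for H2-Eb1 and -1.46 (SE 0.248, adjusted p = 0.000104) for Cd74. Together the 10 genes fell to 0.849% ± 0.0909 (SD, n = 4) of the reads.

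Ciita fell to a few reads in the graft after LPS. Its reads numbered 4, 1, 2 and 1 in mice 1, 2, 3 and 4, or 4.40, 1.2, 2.56 and 2.92 CPM. From 8 and 93 reads, the level was 12.3-fold lower after LPS, with a 95% counting interval of 6.00 to 29.4 for counting error only, and the fitted log2 fold change was -2.79 (SE 0.446, adjusted p = 5.32e-05). Neither the difference between Ciita and the classical genes nor the part of Ciita in their fall was tested. DM fell as well. H2-DMa stood at 354, 374, 303 and 452 CPM and H2-DMb1 at 119, 106, 122 and 219 CPM, with log2 fold changes of -1.53 (SE 0.196, adjusted p = 3.91e-06) and -1.44 (SE 0.226, adjusted p = 4.41e-05). H2-Ob gave 13.2, 9.63, 17.9 and 32.1 CPM and fell by 1.69 on the log2 scale (SE 0.296, adjusted p = 0.000135). H2-Oa gave 6.60, 20.5, 19.2 and 32.1 CPM, overlapped with the unchallenged graft, and was not called (log2 fold change -0.59, SE 0.338, adjusted p = 0.176).

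Against these 8 of 9 genes, 9.78% of all 7609 tested genes were called lower with LPS in engrafted cells and 9.27% were called higher. Of the 8, Ciita passed the filter for low counts only through the unchallenged libraries, where it is high. The median log2 fold change was -1.69 over the class II genes and -0.01 over all tested genes. This comparison uses the same unchallenged engrafted libraries as the comparison of graft with host above. Marker lists of several cell types moved with it. For monocytes the summed level over 6 genes was 207 to 345 CPM in the unchallenged graft and 1156 to 2128 CPM after LPS, and 5 of the 6 were called higher (Chil3, F13a1, Fn1, Ly6c2 and Plac8), while the chemokine receptor Ccr2 was called lower. In host microglia the same sum was 7.79 to 25.2 CPM without and 18.6 to 51.7 CPM with LPS. The sums of lists for cells that carry class II were lower. The dendritic cell sum was 47.3 to 62.6 CPM after LPS against 138 to 222 CPM before, and Batf3, the only gene of the list that was tested, was called lower (log2 fold change -1.96, SE 0.198, adjusted p = 1.74e-07), as it was in the host (-1.40, SE 0.206, adjusted p = 1.18e-05). The B cell sum was 37.3 to 78.8 CPM after LPS against 101 to 135 CPM before, with Cd22 (-1.17, SE 0.264, adjusted p = 0.00152) and Cd79b (-1.24, SE 0.281, adjusted p = 0.00155) called lower. Cd79b was also called lower with LPS in the host (-1.04, SE 0.201, adjusted p = 0.000258), where Cd22 did not pass the test (-0.44, SE 0.199, adjusted p = 0.0869). Batf3, Cd22 and Cd79b, which made up most of the dendritic cell and B cell sums, averaged 115, 37.6 and 43.2 CPM in the unchallenged host. The perivascular macrophage sum was 997 to 1277 CPM after LPS against 1385 to 1592 CPM before. Of its 6 tested genes, Cbr2, Ms4a7 and Pf4 were called lower and Cd163 and F13a1 higher. The part of any of these markers in the fall of class II RNA was not tested.

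In host microglia LPS divided the class II genes differently. DM and H2-Ob fell, the classical chains did not pass the test, and Cd74 stood higher. H2-DMa gave 264, 346, 289 and 355 CPM in mice 1, 2, 3 and 4, H2-DMb1 gave 84.9, 73.3, 115 and 116 CPM, and H2-Ob gave 20.4, 23.5, 22.6 and 32.2 CPM, all below each unchallenged host library. Their log2 fold changes were -1.04 (SE 0.142, adjusted p = 4.35e-06), -1.24 (SE 0.168, adjusted p = 3.74e-06) and -1.20 (SE 0.194, adjusted p = 3.53e-05). H2-DMa was close to the 2-fold limit, and without the host library of mouse 1 or of mouse 3 its log2 fold change was -0.957 or -0.996. H2-Oa gave 86.0, 84.0, 63.1 and 85.3 CPM, with a log2 fold change of -0.55 (SE 0.165, adjusted p = 0.0103), under 2-fold but below each unchallenged host library.

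The classical chains in LPS-treated host microglia overlapped with those of unchallenged mice. H2-Ab1 gave 83.8, 148, 181 and 185 CPM (log2 fold change -0.51, SE 0.234, adjusted p = 0.0869), H2-Aa gave 34.0, 46.9, 94.0 and 85.3 CPM (-0.62, SE 0.307, adjusted p = 0.114), and H2-Eb1 gave 23.8, 30.3, 40.5 and 39.2 CPM (-0.14, SE 0.266, adjusted p = 0.702). Without the unchallenged host library of mouse 6, the highest for these genes, the log2 fold change of H2-Eb1 was 0.25. Cd74 gave 180, 205, 161 and 127 CPM, so that 3 of 4 LPS libraries lay above all unchallenged ones. Its log2 fold change was 0.72 (SE 0.231, adjusted p = 0.0171), under 2-fold, and without the unchallenged library of mouse 6 it was 1.004 (adjusted p = 0.00209), just past the limit. Ciita had no read in the 4 LPS libraries of the host. Of the 8 genes tested, 3 were called lower and 0 were called higher, against 9.29% and 6.79% of all 8238 tested genes, and 5 of the 8 passed the adjusted p of 0.05 without regard to fold. The median log2 fold change was -0.59 over the 8 genes and 0.01 over all tested genes.

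**Figure D4:**
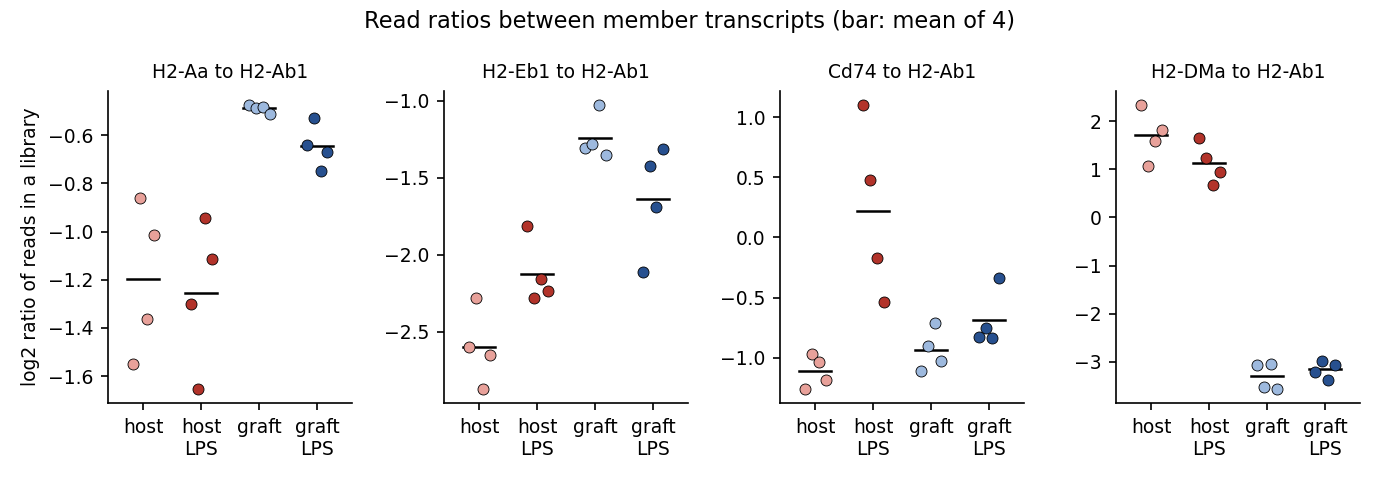
Ratio of the reads of member transcripts within each library, on the log2 scale, with a separate axis for each pair. Each point is 1 library and the bar is the mean of 4. Reads of Cd74 to H2-Ab1 lay between 0.689 and 2.15 in LPS-treated host microglia, above the 0.418 to 0.511 of unchallenged host microglia.

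The ratio of Cd74 to H2-Ab1 reads within a library summarised this. It was 0.464 ± 0.0429 (SD, n = 4) in unchallenged host microglia and 1.28 ± 0.650 after LPS, without overlap, and the graft moved only from 0.525 ± 0.0648 to 0.627 ± 0.109, with overlap. The ratio of H2-DMa to H2-Ab1 set the populations apart most widely, at 0.103 ± 0.0200 in the unchallenged graft and 3.42 ± 1.25 in the unchallenged host. Within DM, H2-DMb1 stood to H2-DMa as 0.353 ± 0.0137 in the unchallenged graft and 0.358 ± 0.0465 in the unchallenged host, and as 0.376 ± 0.0867 and 0.315 ± 0.0773 after LPS, with overlap between all 4 groups. Within DO the populations differed, with H2-Oa to H2-Ob at 0.496 ± 0.112 in the unchallenged graft and 2.00 ± 0.161 in the unchallenged host, without overlap.

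The difference between both responses was tested as the interaction of population and challenge over all 16 libraries. Cd74, H2-Eb1 and H2-Ab1 were called, each with a more negative response in the graft. The differences of log2 fold change, graft minus host, were -2.19 (SE 0.380, adjusted p = 0.000466), -1.96 (SE 0.408, adjusted p = 0.00330) and -1.25 (SE 0.365, adjusted p = 0.0398). H2-Aa differed by -1.30 (SE 0.437, adjusted p = 0.0792) and missed the threshold, but with the mouse as a block, which pairs the populations of each brain, its adjusted p was 0.00490. H2-DMa (-0.50, adjusted p = 0.253), H2-DMb1 (-0.22, adjusted p = 0.764), H2-Ob (-0.54, adjusted p = 0.428) and H2-Oa (-0.07, adjusted p = 0.909) did not pass the test, and for Ciita the host counts of 1 and 0 leave the difference without a usable estimate. The call of H2-Ab1 was lost on leaving out any of 10 of the 16 libraries, with differences of -1.03 to -1.29 in those 10 and an adjusted p of up to 0.116, while with the mouse as a block it was -1.21 (adjusted p = 0.00281). In all, 3 of 9 class II genes were called lower, 0 were called higher, and the shares over all 8847 tested genes were 2.4% and 2.36%.

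After LPS the engrafted cells again stood above the host in the classical genes. The log2 fold changes of graft over host were 4.97 (SE 0.299) for H2-Aa, 4.45 (SE 0.258) for H2-Ab1, 4.93 (SE 0.274) for H2-Eb1 and 3.62 (SE 0.240) for Cd74, with adjusted p-values of 1.58e-09, 1.22e-09, 8.45e-10 and 5.64e-09. As a share of the graft level in the same mouse, the host level of Cd74 was 4.29 to 11.7% and that of H2-Ab1 2.55 to 5.74%. Ciita had 8 reads in the graft and 0 in the host. With 3 reads over the host group taken as the limit, engrafted cells were 3.22-fold higher. This value leaves out the counting error of the graft reads and is no lower bound. The two-sided exact permutation test of Ciita CPM gave p = 0.0286, the smallest that 4 libraries against 4 can give. H2-Oa remained lower in the graft (log2 fold change -2.01, SE 0.286, adjusted p = 4.94e-05). H2-DMa (0.25, adjusted p = 0.456), H2-DMb1 (0.50, adjusted p = 0.169) and H2-Ob (-0.51, adjusted p = 0.295) overlapped between the populations. Of 8 tested class II genes 4 were called higher and 1 lower, against 6.43% and 3.93% of all 7843 tested genes. With library totals in place of TMM, which shifted the median of all genes by -0.14 in this comparison, the split over all genes went from 504 higher and 308 lower to 422 and 416. The median log2 fold change was 2.06 over the 8 class II genes and -0.01 over all tested genes.

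The listed factors that act at class II promoters (7 subunits of RFX, NF-Y and CREB) were all tested between graft and host, and 0 were called in either state. With 7 genes this count is near the share over all tested genes given above and says little about these factors, which had median log2 fold changes of 0.06 without LPS and 0.13 after it. With LPS, Nfya, a subunit of NF-Y, was lower in the graft (log2 fold change -1.29, SE 0.317, adjusted p = 0.00295). In the host, Creb1 (-1.16, SE 0.181, adjusted p = 2.22e-05) and Rfxank, a subunit of RFX (-1.03, SE 0.214, adjusted p = 0.000561), were lower. Each also stood lower in the other population by less than 2-fold. Nfya changed by -0.74 in the host (adjusted p = 0.0155), and Creb1 by -0.91 (adjusted p = 0.00222) and Rfxank by -0.92 (adjusted p = 0.0117) in the graft. The interaction test was not passed by Nfya, Creb1 or Rfxank (adjusted p = 0.433, 0.691 and 0.933). Of 12 genes listed as regulators of Ciita, 11 were tested without LPS and 0 were called between graft and host. Prdm1, which encodes the repressor BLIMP-1, was called higher in the graft after LPS (1.37, SE 0.351, adjusted p = 0.0105) and lower with LPS in the host (-1.11, SE 0.266, adjusted p = 0.00203). After LPS its levels overlapped, at 5.84 to 49.4 CPM in the graft and 6.84 to 13.1 CPM in the host. Its mean in the graft was 45.0 CPM without LPS and 29.7 CPM with it. With LPS in the graft 0 of the 11 tested regulators were called, where Ciita itself fell.

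Among 8 genes of antigen processing, Ctsl, the cathepsin L gene, was lower in the graft, at 297 ± 8.99 CPM (SD, n = 4) against 1124 ± 80.3 CPM in the unchallenged host (log2 fold change -1.90, SE 0.114, adjusted p = 8.40e-13). It rose with LPS in the graft (1.21, SE 0.176, adjusted p = 1.94e-05) and in the host (1.01, SE 0.139, adjusted p = 4.82e-06). Ifi30, the thiol reductase GILT, rose with LPS in the graft (1.58, SE 0.176, adjusted p = 6.83e-07), opposite in direction to the class II genes of the same cells. In the host it rose by less than 2-fold (0.72, SE 0.158, adjusted p = 0.000901). After LPS, Cst3, a cathepsin inhibitor, was lower in the graft than in the host (-1.41, SE 0.184, adjusted p = 1.97e-05). Without LPS it was also lower there, by less than 2-fold (-0.83, SE 0.0969, adjusted p = 2.02e-07).

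Some genes of the co-stimulation list rose where class II fell. The list also holds the inhibitory ligand Cd274 and the adhesion gene Icam1. Of 5 tested with LPS in the graft, 3 were called higher and 0 lower, against 9.27% and 9.78% of all tested genes. The genes called higher were Cd274 (PD-L1, 2.29, SE 0.359, adjusted p = 4.30e-05), Cd40 (1.55, SE 0.269, adjusted p = 0.000124) and Icam1 (1.07, SE 0.276, adjusted p = 0.00432). Icam1 overlapped between the groups, at 140 to 539 CPM after LPS and 120 to 183 CPM without it. Cd86 (0.20, SE 0.180, adjusted p = 0.402) and Icosl (-0.12, SE 0.173, adjusted p = 0.620) did not pass the test in the graft. In the host Cd274 (1.58, SE 0.272, adjusted p = 7.50e-05) and Cd40 (1.62, SE 0.346, adjusted p = 0.000705) were called higher. Cd40 was higher in the unchallenged graft than in the host, at 71.6 ± 10.7 CPM against 16.6 ± 7.22 CPM (1.92, SE 0.228, adjusted p = 2.49e-07). March1, a ubiquitin ligase that removes class II from the surface, rose with LPS in the graft (1.33, SE 0.278, adjusted p = 0.000768) and in the host (1.43, SE 0.173, adjusted p = 9.04e-07). Cd83, which opposes that ligase, fell in the graft by 1.08 on the log2 scale (SE 0.259, adjusted p = 0.00243).

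Along the class II region of chromosome 17, 6 further genes lie between or overlap the members. BC051537 overlaps H2-Oa on the other strand. Psmb9, Psmb8, Tap1 and Tap2 belong to the class I pathway, Brd2 encodes a chromatin reader, and BC051537 had 2 reads in all libraries. BC051537 was not tested, and none of the others was called between graft and host without LPS. For so few genes this is near the shares over all tested genes (5.66% higher and 4.33% lower). Their log2 fold changes ran from -0.11 for Brd2 to 0.73 for Psmb9, whereas the adjacent run of H2-Ab1, H2-Aa and H2-Eb1 lay above 5. Psmb9 (adjusted p = 0.000573), Tap1 (0.56, adjusted p = 0.00250) and Psmb8 (0.52, adjusted p = 0.00141) were higher in the graft without overlap. The differences were under 2-fold, as for H2-DMa and H2-DMb1. With LPS in the graft, Tap1 (0.69, SE 0.188, adjusted p = 0.00687) and Psmb8 (0.49, SE 0.168, adjusted p = 0.0273) stood higher by less than 2-fold while the class II genes on either side fell. In the host Psmb9 stood lower (-0.95, SE 0.164, adjusted p = 8.17e-05). After LPS both Psmb8 (1.30, SE 0.188, adjusted p = 5.66e-05) and Psmb9 (1.38, SE 0.185, adjusted p = 2.61e-05) were called higher in the graft than in the host.

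**Figure D5:**
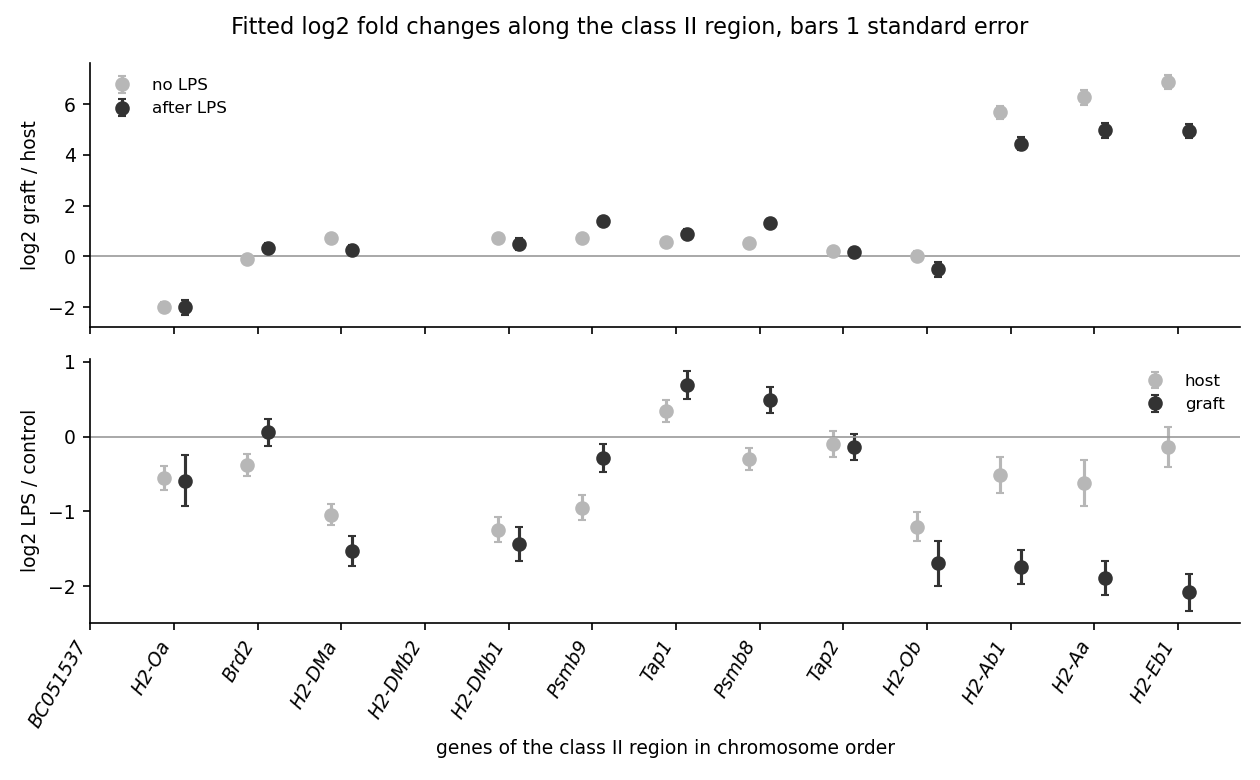
Fitted log2 fold changes of genes of the class II region in chromosome order, not to scale along the chromosome, with bars of 1 standard error. The upper panel sets graft against host and the lower panel LPS against control, and genes without a point were not tested. The difference between graft and host is largest at H2-Ab1, H2-Aa and H2-Eb1, at one end of the region.

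Genes that varied with the classical set from mouse to mouse were sought after the mean of each group had been removed, so that differences between group means did not enter. Over 16 libraries, the 6780 genes that averaged 20 CPM or more were ranked by Pearson's r with the mean log2 level of H2-Aa, H2-Ab1, H2-Eb1 and Cd74. The 10 highest outside the class II genes were Anapc13, Fxyd5, Dpm2, Rabepk, Plbd1, Psmb9, Tpp2, Alox5ap, Gm12250 and Mrps25, with r from 0.794 to 0.729. Psmb9, the sixth, lies in the class II region. Among the other class II genes r was 0.673 for H2-DMa, 0.598 for H2-DMb1, 0.489 for H2-Ob and 0.439 for H2-Oa. These correlations are descriptions. The libraries of a mouse share an animal, the lowest r among all genes was -0.772, and leading values out of 6780 are high by selection.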

How the data were processed

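RNA of sorted engrafted cells and host microglia was measured in 16 libraries from 8 chimeras. The authors made libraries by a derivation of MARS-seq, mapped reads to mm9 with HISAT (version 0.1.5 in the submitters' processing notes), kept unique reads and counted them on the exons of RefSeq genes on the sense strand with HOMER. What was deposited are raw read counts per gene for 24411 genes. No step that collapses PCR copies is named, so intervals cover counting error only. Replicate libraries differed by 1.98 to 8.64 times counting noise (chi-square per degree of freedom, 24 pairs).

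Groups came from the sample titles. Counts were tested in R 4.3.3 with edgeR 4.0.16 (filterByExpr with minimum count 10 and minimum total 15, TMM, quasi-likelihood test, prior count 2), each comparison on its own 8 libraries and the interaction on all 16, with Benjamini-Hochberg adjustment over all genes tested. The threshold was a log2 fold change beyond 1 in either direction together with an adjusted p under 0.05. Standard errors are the fold change divided by the root of F. The test was checked on simulated counts. The main comparisons hold no mouse term, as none is named in the study's methods. Engrafted and host libraries with the same number come from the same mouse, and r between them after removal of group means was -0.0299 to 0.210, above the mean with other mice in 7 of 8 mice. Alternatives were the mouse as a block, RLE factors, library totals, 2 other filters, DESeq2 1.42.0, limma-trend (limma 3.58.1), adjusted p alone, 1 fit over all libraries, and leaving out each library.

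The 10 genes and all gene lists were chosen with earlier results of these data known. The genes named are the 10 members, called genes of the lists on class II regulation, processing, turnover and co-stimulation, the 10 genes most like the classical set, and genes of the class II region. The ratios within DM and within DO were added after the data were seen. Promoters were read from the mm9 genome at the gene starts of the table, and coding sequences from the GENCODE annotation of that build. Protein sequences were not used here, and 2 marker genes are not reported here.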

Additional observations from a re-analysis of the deposited data

Results flagged for a closer look

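Among 34 groups of 4 libraries tested, 3 held a value that stood apart from the other 3 libraries of its group, and chance gives this for about 1 group in 20. In the engrafted cells of LPS-treated mouse 4, the library of lowest depth, Cd74 was at 2965 CPM and H2-DMb1 at 219 CPM. Without that library, the log2 fold changes of LPS in engrafted cells were -1.66 for Cd74 and -1.66 for H2-DMb1. In the host microglia of LPS-treated mouse 3, H2-Oa was at 63.1 CPM.

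The response to LPS differed between engrafted cells and host microglia, by the test of the interaction, for Cd74 (-2.19), H2-Eb1 (-1.96) and H2-Ab1 (-1.25 on the log2 scale, graft minus host).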

How the results depend on the processing

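Of 725 values of single class II genes under alternative settings, 696 kept their direction and their side of the threshold, 13 lost the call, 7 gained it and 9 changed sign, and the cause was not tested unless given here. The number of class II genes called lower in the graft after LPS became 0 under a filter of 10 reads in every library, which H2-Oa did not pass. The number called higher with LPS in the host became 1 (Cd74) by adjusted p alone, and ranged from 0 to 1 when a library was left out, with 1 reached without the unchallenged host library of mouse 6. With the mouse as a replicate block 4 class II genes were called in the interaction, since H2-Aa was added (-1.30, adjusted p = 0.00490), and the block changed no other call of these genes. H2-Aa was also called without a filter (-1.26, adjusted p = 0.000170) and without the LPS-treated host library of mouse 1, the unchallenged graft library of mouse 5 or the unchallenged host library of mouse 6 (lowest adjusted p = 0.0174). H2-Ab1 lost its interaction call under limma-trend (adjusted p = 0.0564), and Ciita gained one there (-2.66, adjusted p = 0.00588), a value set against host counts of 1 and 0 reads that is no estimate of the difference.

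Signs changed for values near 0. H2-Ob between graft and host without LPS was -0.0610 with library totals, -0.0404 without a filter and -0.18 to 0.11 when a library was left out. Leaving out a library gave -0.30 to 0.25 for H2-Eb1 with LPS in the host and -0.25 to 0.25 for H2-Oa in the interaction.

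These counts over all genes moved by more than 1.5 times. Genes higher in the graft without LPS numbered 827 without a filter, 202 with 10 reads in every library, 722 by DESeq2 and 1096 by adjusted p alone, and genes lower 163 and 1102 under the second and the last. After LPS they numbered 815 without a filter and 220 with 10 reads (higher), and 121 with 10 reads and 598 by adjusted p alone (lower). With LPS in the graft they were 362 and 1477 (higher, 10 reads and adjusted p alone), and 1195, 393 and 1470 (lower, without a filter, 10 reads and adjusted p alone). With LPS in the host they were 358 and 1581 (higher), and 464 and 1688 (lower), under 10 reads and adjusted p alone. In the interaction they were 130 higher and 104 lower with 10 reads, and 130 to 234 lower when a library was left out. Depth limits Ciita in the host and H2-Oa and H2-Ob in the graft after LPS, which rest on few reads. The ranking of genes by likeness to the classical set held the same 10 genes with RLE factors.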
